A study of Homo sapiens with 10 samples.

Results

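The regions described here are CTCF peaks that were called after CGGBP1 was depleted and after it was overexpressed, that had no overlapping peak in control cells, and that lay on H3K4me3, the histone mark of active promoters. They were chosen from the deposited peak lists. A CTCF peak of the depleted cells was a member when it overlapped no control CTCF peak, overlapped a CTCF peak of the overexpressing cells and shared at least 1 bp with an H3K4me3 peak of the depleted cells. This rule selected 3490 of the 47632 CTCF peaks of the depleted cells. Of those 47632 peaks, 54.8% had no control peak, 22.7% had no control peak but a peak in the overexpressing cells, and 33.1% lay on H3K4me3. The 3490 peaks were 32.3% of the CT-absent peaks shared with the overexpressing cells and 22.1% of the peaks on H3K4me3. These shares follow from the rule and are a description.

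All libraries came from HEK293T cells, a human embryonic kidney cell line, which were transduced with lentivirus. Control cells (CT) carried a non-targeting shRNA, knockdown cells (KD) carried shRNAs against the open reading frame of CGGBP1 and overexpressing cells (OE) carried a CGGBP1-FLAG construct, with puromycin at 10 µg/ml used to select the shRNA cells. CTCF was measured by ChIP-seq in CT, KD and OE, and H3K4me3 in CT and KD, so the state of H3K4me3 in OE was not analysed here. Each condition gave 1 library, so the spread between replicates is unknown and differences between conditions were not tested. CTCF peaks numbered 42978 (CT), 47632 (KD) and 47216 (OE), and H3K4me3 peaks 76814 (CT) and 81932 (KD). The labels give the p threshold for CTCF peaks as 0.0025 in CT and KD and as 0.005 in OE. By the labels OE peaks were thus called at a looser limit, but the methods give 0.005 for unmasked reads without naming a condition. The lists hold positions in hg38 and no height, so absence in CT means that no peak was called there, not that no reads were there, and the reads behind a peak are not known here.

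CTCF is a zinc finger protein that binds a long, asymmetric DNA motif and, with cohesin, holds the ends of chromatin loops. Many of its sites lie at promoters, where nucleosomes beside the start of transcription carry H3K4me3. CGGBP1 is a small DNA-binding protein named for its binding to CGG repeats.

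To show what these peaks hold, the 14-base CTCF motif was searched with a matrix learned from repeat-masked CT peaks that KD and OE shared and that overlapped none of the CT-absent peaks. The 12 peaks with the highest site score within 1 kb of a protein-coding start, 1 per gene, are given by the site (capitals) and the 8 bases on either side, read 5′ to 3′ on the strand of the site.
C8B, chr1:56968430-56968443, minus strand: ctgggaaaCCACCAGGGGGCGCgatgaggt
CATSPERZ, chr11:64304477-64304490, minus strand: aggtctccCCACCAGGGGGCGCcgcatgtg
ESR2, chr14:64295025-64295038, minus strand: tggggctgCCACCAGGGGGCGCgaggggcc
FLT3LG, chr19:49474150-49474163, plus strand: gcctctcaCCACCAGGGGGCGCgctccgcc
GNAI2, chr3:50246361-50246374, minus strand: ccccgccaCCACCAGGGGGCGCccggcagc
REPS1, chr6:138988368-138988381, minus strand: ggcgccggCCACCAGGGGGCGCtgcggcct
KATNBL1, chr15:34210190-34210203, minus strand: agctctagCCACCAGGGGGCACtgtggcca
CDH24, chr14:23058209-23058222, minus strand: cacaactaCCACCAGGGGGCGGcagctcct
NCBP3, chr17:3846363-3846376, minus strand: ttctcccgCCACCAGGGGGCGGcggcgcta
NUDT17, chr1:145845595-145845608, plus strand: tctctaggCCACCAGAGGGCGCcaggcggg
CXCL12, chr10:44386729-44386742, minus strand: aggcgccgCCACCAGAGGGCGCcggagccc
CYP2E1, chr10:133520300-133520313, minus strand: ggccccgcCCACCAGAGGGCGCcagagaga
The first 6 carried the same 14 bases and scored 23.8 bits, against a limit of 8.26 bits for a site at p below 0.0001. The other 6 scored between 23.1 and 23.3 bits. The site lay on the minus strand of the chromosome in 10 of the 12, and 11 of the 12 peak centres lay upstream of the start. Of all 846 members within 1 kb of any annotated start, 507 lay upstream. None of the 12 overlapped an input peak or held a repeated base, defined as a base in a 24-mer with at least 10 copies in the reference. Mapped with repeats masked, the CT library gave a CTCF peak at 4 of the 12: GNAI2, NCBP3, NUDT17 and CYP2E1. A repeat-masked KD peak was present at 10 of the 12 and an OE peak at 10. C8B had no repeat-masked peak in CT, KD or OE.

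The 12 genes have unrelated roles. C8B encodes a chain of a complement component, ESR2 the oestrogen receptor beta, FLT3LG a ligand of the FLT3 receptor, GNAI2 an inhibitory G protein subunit, CXCL12 a chemokine, CDH24 a cadherin and CYP2E1 a cytochrome P450. At ESR2 the KD CTCF peak was 291 bp wide and the OE peak 288 bp, and it lay 613 bp upstream of a start under an H3K4me3 peak of 1388 bp in CT and 1217 bp in KD. At CXCL12 the KD peak was 301 bp and the OE peak 233 bp, 243 bp upstream of a start, and H3K4me3 measured 488 bp in CT and 480 bp in KD. At GNAI2 the KD peak was 286 bp and the OE peak 333 bp, with H3K4me3 of 762 bp in CT and 1143 bp in KD. At FLT3LG the KD peak of 260 bp was centred 65 bp upstream of a start, and H3K4me3 measured 517 bp in CT and 575 bp in KD. H3K4me3 of CT thus overlapped the CTCF peak at these 4 genes, and at 10 of the 12. The exceptions were C8B, with an H3K4me3 peak of 397 bp in KD that shared 47 bp with the CTCF peak, and KATNBL1, where a KD peak of 1370 bp shared 5 bp with it. At KATNBL1 the H3K4me3 peak of KD overlapped one of CT that ended before the CTCF peak, and at C8B it overlapped none.

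Whole KD peaks are shown for the first 3 of the 12 that were no wider than 300 bp and overlapped no annotated UTR, on the plus strand of the chromosome. The capitals mark the site, which these 3 peaks hold on the minus strand.
C8B, chr1:56968374-56968641: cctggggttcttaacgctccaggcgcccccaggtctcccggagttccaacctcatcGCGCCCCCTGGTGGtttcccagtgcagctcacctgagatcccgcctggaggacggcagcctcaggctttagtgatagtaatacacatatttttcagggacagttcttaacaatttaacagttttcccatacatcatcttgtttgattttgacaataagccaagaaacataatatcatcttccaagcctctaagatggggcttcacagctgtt
ESR2, chr14:64294878-64295168: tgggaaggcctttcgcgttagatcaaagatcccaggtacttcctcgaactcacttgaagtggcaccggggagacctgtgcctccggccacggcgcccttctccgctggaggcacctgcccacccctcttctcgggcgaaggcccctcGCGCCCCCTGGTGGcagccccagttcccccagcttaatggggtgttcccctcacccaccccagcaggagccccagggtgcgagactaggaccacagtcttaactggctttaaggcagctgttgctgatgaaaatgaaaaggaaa
GNAI2, chr3:50246192-50246477: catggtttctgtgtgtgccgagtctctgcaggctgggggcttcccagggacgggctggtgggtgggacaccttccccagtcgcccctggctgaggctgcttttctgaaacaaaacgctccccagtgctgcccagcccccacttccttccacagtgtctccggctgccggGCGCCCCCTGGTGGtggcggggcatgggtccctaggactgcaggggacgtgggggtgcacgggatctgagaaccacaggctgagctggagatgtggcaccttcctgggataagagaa
At C8B this was the only site above the limit, at ESR2 there were 2 such sites and at GNAI2 3.

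The median width of the CTCF peaks was 299 bp in KD (quartiles 255 and 360 bp) and 286 bp in OE (quartiles 244 and 346 bp). The centres of the KD and OE peaks were a median of 32 bp apart, with an upper quartile of 61 bp, against a median of 33 bp in CT-absent peaks outside H3K4me3 and 25 bp in constitutive peaks on H3K4me3. Small distances follow in part from the rule, which required KD and OE peaks to overlap. The KD peak was the wider in 1926 of the 3490, the OE peak in 1551, and both measured the same in 13. Constitutive CTCF peaks on H3K4me3, those of KD that also overlapped a CT and an OE peak (9440 peaks), had a median of 331 bp in KD, and the 2102 peaks of KD alone on H3K4me3 had 262 bp.

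A control CTCF peak was rarely next to the place where one was missing. The nearest CT peak lay a median of 16.1 kb away (quartiles 4912 and 40252 bp) among the 3484 peaks on sequences with a CT peak. It was closer than 500 bp at 127 peaks (3.64%), closer than 2 kb at 461 (13.2%) and closer than 10 kb at 1359 (38.9%). The other CT-absent lists lay farther from CT peaks. The median was 19156 bp outside H3K4me3 and 21438 bp in peaks of KD alone on H3K4me3.

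Repeat-masked reads of the same 3 CTCF libraries gave a further view of the absence, which is not independent evidence. A repeat-masked CT peak, called at p below 0.001, overlapped 826 of the 3490 peaks (23.7%, 95% Clopper-Pearson interval 22.3 to 25.1), so at these 826 the 2 mappings of the CT library disagreed. All intervals given here cover counting error within these libraries only. The share was 43.1% over all KD CTCF peaks on H3K4me3, 58.8% in constitutive peaks and 6.14% in peaks of KD alone. The difference from constitutive peaks was -35.2 percentage points (95% Newcombe interval -36.9 to -33.4). A repeat-masked KD peak overlapped 2209 of the peaks (63.3%, against 58.6% of all KD peaks on H3K4me3), and a repeat-masked OE peak 2050 (58.7%, against 51.7%). Repeat-masked peaks in both KD and OE were found at 55.7%, against 60.8% of constitutive peaks and 47.0% of CT-absent peaks outside H3K4me3. Both mappings agreed on KD and OE without CT at 1174 peaks (33.6%). All 3 repeat-masked lists held a peak at 771, and none did at 1167 (33.4%, against 39.0% of all KD peaks on H3K4me3). The combinations behind the 1174 and the 771 were not counted in the other lists.

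Most of the peaks held a CTCF motif. A site at p below 0.0001 was found in 2742 of 3490 (78.6%, interval 77.2 to 79.9), against 72.3% of all KD CTCF peaks on H3K4me3. At p below 0.00001 the site was found in 2062 (59.1%), against 56.4%. Peaks of KD alone on H3K4me3 had a site in 50.3%, a difference of 28.2 percentage points (25.7 to 30.8). The reverse list, 1078 CT peaks with neither a KD nor an OE peak on H3K4me3 of CT, had a site in 30.7%, a difference of 47.9 points (44.7 to 50.9). Those 2 lists required a single CTCF library, whereas the 3490 peaks had to be called in both KD and OE, and the part of this in the difference was not tested.

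Against constitutive peaks on H3K4me3, of which 75.6% held a site, the difference was 2.97 points (1.34 to 4.57), and its sign was not stable. It was -3.86 points at p below 0.00001, -3.50 points without peaks at input peaks and -3.56 points among peaks with repeat-masked KD and OE peaks, but 26.6 points (24.3 to 28.9) without peaks at repeat-masked CT peaks. This last value is in part built in, because the matrix was learned from repeat-masked CT peaks that overlapped no CT-absent peak. Constitutive peaks could be among the peaks it was learned from, and the 3490 could not. The effect of this on the other differences from constitutive peaks was not tested. Leaving out peaks at repeat-masked CT peaks removed 58.8% of the constitutive peaks and 23.7% of the 3490. CT-absent peaks shared by KD and OE outside H3K4me3 (7324 peaks) held a site in 83.9%, and the difference was -5.33 points (-6.95 to -3.75). Without peaks at input peaks this difference was -0.12 points, with an interval from -1.64 to 1.36. The site was close to the middle of the peak: a median of 24.8 bp from the centre, and within 50 bp in 2138 of 2742 peaks (78.0%). The median was much the same in constitutive peaks on H3K4me3 (24.5 bp) and in CT-absent peaks outside H3K4me3 (23.5 bp). In peaks of KD alone the median was 34.5 bp and in the reverse list 57.0 bp. A second site or more was present in 845 of the 3490 peaks (24.2%), against 24.4% of all KD CTCF peaks on H3K4me3. Constitutive peaks on H3K4me3 had a higher share, 26.7%. The share was 18.3% in CT-absent peaks outside H3K4me3 and 15.2% in peaks of KD alone on H3K4me3.

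**Figure D1:**
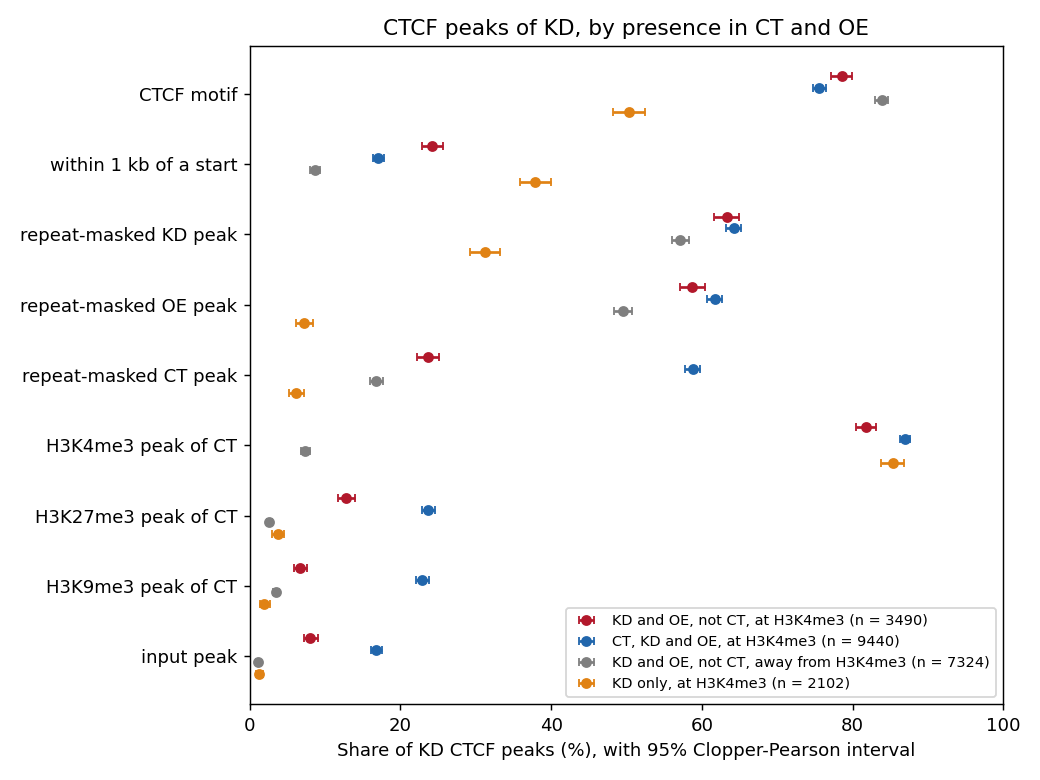
Share of KD CTCF peaks with each feature (x axis, %), with points for 4 lists of peaks and lines for 95% Clopper-Pearson intervals. The 3490 peaks absent in CT on H3K4me3 stood at 78.6% for the motif and 23.7% for a repeat-masked CT peak, where constitutive peaks stood at 75.6% and 58.8%.

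H3K4me3 peaks were called in control cells, too, at most of these places. An H3K4me3 peak of CT, which the rule did not use, overlapped 2855 of the 3490 CTCF peaks (81.8%, interval 80.5 to 83.1). Over all KD CTCF peaks on H3K4me3 the share was 85.2%, and over all H3K4me3 peaks of KD, with or without CTCF, 80.7% overlapped an H3K4me3 peak of CT. Constitutive CTCF peaks had it in 87.0%, a difference of -5.21 percentage points (-6.68 to -3.78), and peaks of KD alone in 85.3%, a difference of -3.54 points (-5.50 to -1.53). Where the mark was called in both conditions its width was close: the median log2 ratio of KD to CT width was 0.0027, with quartiles at -0.16 and 0.19. The KD width was more than 1 log2 unit greater at 2.94% of the 2855 places and more than 1 unit smaller at 2.63%. Constitutive peaks had 2.84% and 2.64%.

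Presence of the mark in CT followed the width of the H3K4me3 peak of KD. Under 250 bp, 419 of 731 CTCF peaks (57.3%, interval 53.6 to 60.9) had H3K4me3 in CT. From 250 bp to under 500 bp the share was 76.9% (74.4 to 79.3) of 1186, and from 500 bp to under 1000 bp it was 96.2% (94.8 to 97.3) of 951. From 1000 bp to under 2000 bp it was 98.0% of 545, and at 2000 bp or more 97.4% of 77. Constitutive peaks had 64.2% (61.9 to 66.5), 86.2% (85.0 to 87.2), 97.5%, 99.3% and 99.3% in the same bins. The lower share of the CT-absent peaks was therefore largest in H3K4me3 peaks under 500 bp, and the intervals of the 2 lists overlapped in the 3 bins from 500 bp up.

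**Figure D2:**
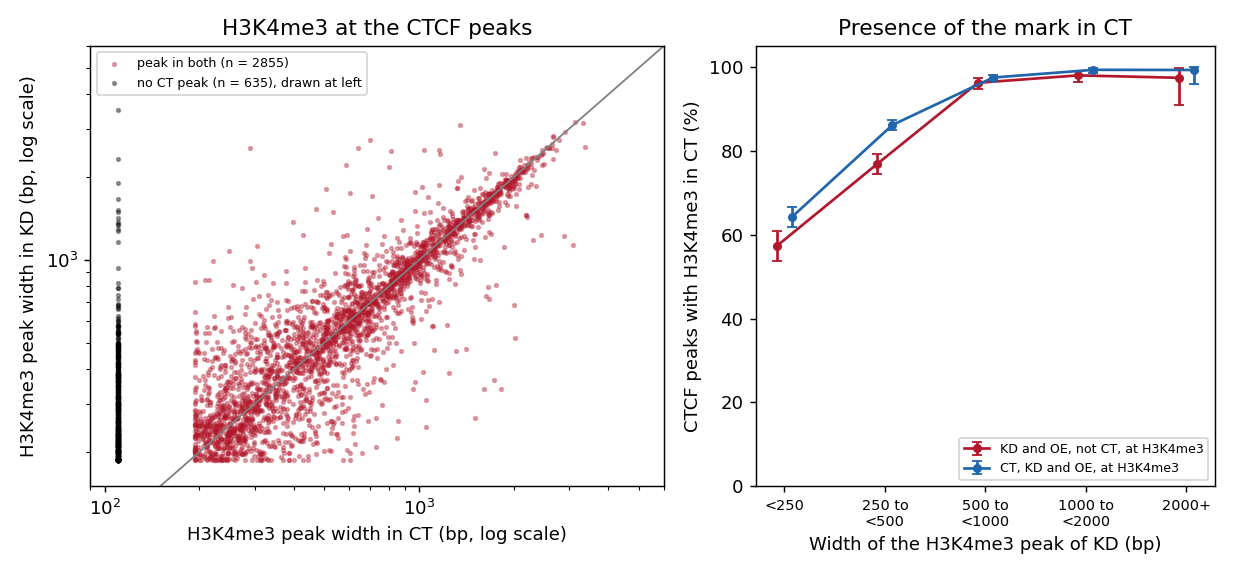
Left, width of the H3K4me3 peaks that overlap each of the 3490 CTCF peaks in CT and in KD (bp, log axes), with the 635 that had no CT peak drawn in black at the left and the diagonal marking equal width. Right, share of CTCF peaks with H3K4me3 in CT (%) by the width of the H3K4me3 peak of KD, with 95% Clopper-Pearson intervals: it was 57.3% under 250 bp and 96.2% from 500 to under 1000 bp.

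At 635 CTCF peaks no H3K4me3 peak of CT overlapped. Their H3K4me3 peaks of KD were narrow, with a median width of 255 bp, against 537 bp where CT had the mark as well. At 29 of the 635 the H3K4me3 peak of KD overlapped a CT H3K4me3 peak beside the CTCF peak, so that the lists differed there in the edge of a shared H3K4me3 region. At the other 606 (17.4% of the 3490, interval 16.1 to 18.7) the H3K4me3 peak of KD overlapped none of CT, and 29 of these 606 had H3K4me3 of at least 500 bp. Constitutive CTCF peaks were without any such H3K4me3 of CT in 12.6% (11.96 to 13.3). The 635 peaks held a CTCF motif in 85.5%, against 77.0% of the 2855, a difference of 8.49 points (5.18 to 11.5). They were within 1 kb of a transcription start in 10.9%, against 27.2%, and at input peaks in 2.83%, against 9.21%.

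The 6 of these 635 with the widest H3K4me3 of KD were all at the edge of an H3K4me3 region of both conditions: in 6 of 6 the H3K4me3 peak of KD overlapped one of CT that did not reach the CTCF peak. At KIF11, a mitotic kinesin, a CTCF peak of 294 bp shared 61 bp with H3K4me3 of 3499 bp. At WDR41 a peak of 228 bp shared 15 bp with H3K4me3 of 1667 bp, and at TNFRSF10D, a decoy death receptor, a peak of 254 bp shared 15 bp with 1905 bp. Beside BTF3-DT the overlap was 4 bp of a 2325-bp H3K4me3 peak. The 2 remaining cases shared more: a CTCF peak at chr2:222708252-222708693, in an intron, shared 154 bp with H3K4me3 of 1518 bp, and one at chr1:63327550-63327973, between genes and beside MIR6068, shared 172 bp with 1499 bp. Of the 6, only the CTCF peak on chromosome 2 overlapped a repeat-masked CT peak.

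The widest H3K4me3 peaks of CT that held a CT-absent CTCF peak lay at EPC1 (3370 bp in CT, 2573 bp in KD), H4C14, a replication-dependent histone H4 gene (3330 and 3136 bp), DKK2, an inhibitor of Wnt signalling (3140 and 3168 bp), UFD1 (3095 and 1134 bp) and RFPL2 (2919 and 2924 bp). The CTCF site scored 17.8 bits at RFPL2, 13.7 bits at DKK2 and 12.8 bits at UFD1. At H4C14 it scored 9.12 bits, just above the limit, and at EPC1 no site passed it. A wide H3K4me3 peak in both conditions was thus found with CTCF peaks of KD and OE both with and without a strong site. Of these genes only H4C14 had a repeat-masked CT peak at the CTCF peak.

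The 3490 peaks seldom shared an H3K4me3 peak with each other. They fell on 3476 different H3K4me3 peaks of KD, of which 3462 held 1 of them and 14 held 2. Other KD CTCF peaks on the same H3K4me3 peaks were not counted. Among those 14, the first in list order lay at ACTA2-AS1 on chromosome 10, where CTCF peaks of 284 and 241 bp sat in H3K4me3 of 805 bp with sites of 19.2 and 17.2 bits. In the next, at chr11:2151608-2152205, the sites scored 15.1 and 11.5 bits. At LINC02724 on chromosome 11 CTCF peaks of 224 and 290 bp sat in H3K4me3 of 1826 bp with sites of 21.6 and 15.5 bits. In each of these 3 pairs both sites lay on the same strand. Among them only the 224-bp CTCF peak at LINC02724 overlapped a repeat-masked CT peak.

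Of the 3490 CTCF peaks, 1347 (38.6%) lay wholly inside the H3K4me3 peak of KD, 1920 (55%) crossed its edge and 223 (6.39%) contained it. The distance between the centres of the 2 peaks had a median of 134 bp, against 97.5 bp in constitutive peaks, and was at most 100 bp in 40.5%, against 51.0%. Near transcription starts the median was 216.5 bp and farther away 115 bp, but the overlap that the rule required bounds this distance by the width of the H3K4me3 peak, which was smaller away from starts. As a share of the half-width of the H3K4me3 peak, where 1 is its edge, the median distance was 0.568 near starts and 0.528 farther away, and 0.542 in all, against 0.395 in constitutive peaks. At the limit of the rule, 3 members shared only 2 bp with H3K4me3 of KD: chr17:39206988-39207260, chr4:60805732-60805999 and chrX:107655194-107655446, with sites of 15.5, 20.2 and 23.2 bits. Another 3 CTCF peaks missed it with 0 bases between, such as chr3:61778129-61778335 and chr3:98573479-98573755, with sites of 15.95 and 18.04 bits. In all, 21 members shared fewer than 10 bp, and 12 CT-absent peaks outside H3K4me3 lay closer than 10 bp to it. Of the 3 members named, only the one on chromosome 17 overlapped a repeat-masked CT peak.

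**Figure D3:**
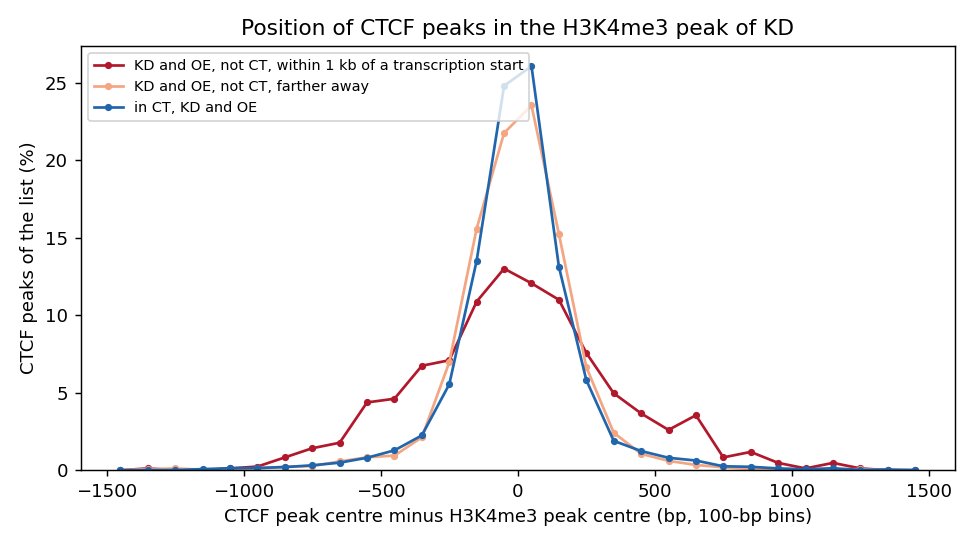
Distance from the centre of the H3K4me3 peak of KD to the centre of the CTCF peak (bp, bins of 100 bp) against the share of CTCF peaks (%). The median distance was 115 bp for CT-absent peaks beyond 1 kb of a transcription start, 216.5 bp for those near starts, where H3K4me3 peaks were wider, and 97.5 bp for constitutive peaks.

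Fewer than 1 in 4 of these CTCF peaks were at an annotated transcription start. The centre lay within 1 kb of a start of GENCODE release 44 in 846 of 3490 (24.2%, interval 22.8 to 25.7), against 21.8% of all KD CTCF peaks on H3K4me3. The share was 17.1% in constitutive peaks, a difference of 7.18 points (5.58 to 8.81), and 37.9% in peaks of KD alone, a difference of -13.7 points (-16.2 to -11.2). CT-absent peaks outside H3K4me3 had 8.70%. The gene at the start was protein-coding for 571 of the 846 and a long non-coding RNA gene for 216. By annotation, 1524 centres were intergenic, 1452 intronic, 86 in a 5′ UTR, 66 in a coding exon, 47 in a 3′ UTR and 226 in an exon of another kind, and 89 lay on sequences without annotation.

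The 846 peaks near starts and the 2644 farther away differed in several measures. Near starts, H3K4me3 of KD had a median width of 943.5 bp, the GC content a median of 56% and 91.8% had H3K4me3 in CT. Farther away these were 378 bp, 46.2% and 78.6%, and the last differed by 13.3 points (10.7 to 15.6). A CTCF motif was present in 85.0% near starts and in 76.5% farther away (difference 8.48 points, 5.46 to 11.3), but at p below 0.00001 in 56.9% and 59.8% (difference -2.94 points, -6.78 to 0.86). A repeat-masked CT peak was found in 23.9% and 23.6% (difference 0.28 points, -2.93 to 3.66).

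Within 1 kb of a start, 507 centres lay upstream and 339 downstream. Upstream, 255 of 429 peaks with a site (59.4%, interval 54.6 to 64.1) had it on the strand of the gene, and downstream 146 of 290 (50.3%, 44.4 to 56.2). Constitutive peaks had 58.4% (55.3 to 61.5) upstream and 45.6% (41.2 to 49.96) downstream, so the intervals of the 2 lists overlapped on either side.

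**Figure D4:**
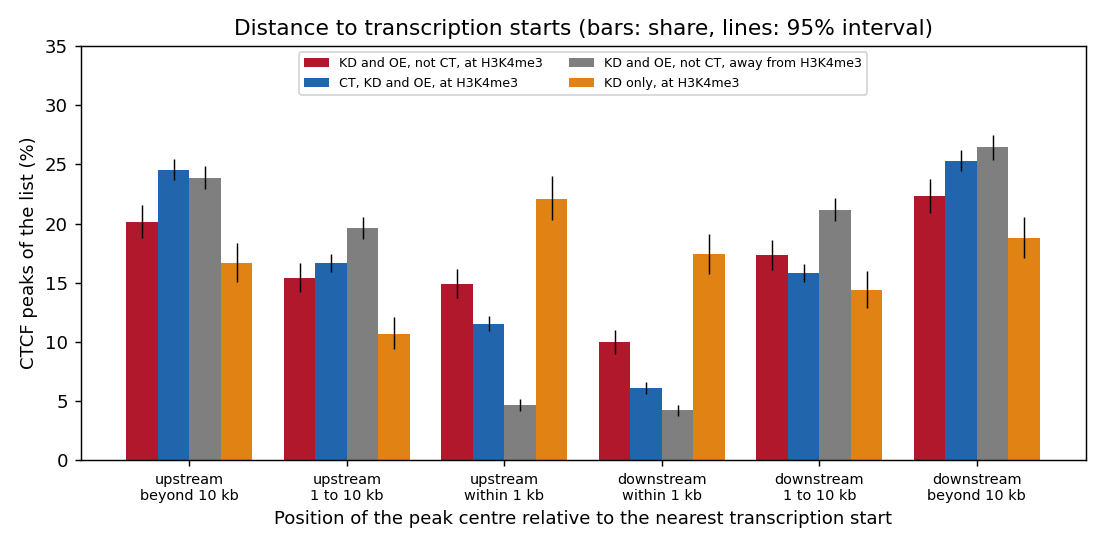
Share of CTCF peaks (%, bars from 0, lines for 95% Clopper-Pearson intervals) by the position of the peak centre relative to the nearest annotated transcription start, for 4 lists of KD peaks. Of the CT-absent peaks on H3K4me3, 14.9% lay within 1 kb upstream and 9.97% within 1 kb downstream.

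Short promoter words were searched on both strands in the 200 bp around each centre. The GC box GGGCGG, bound by SP1 family factors, was found in 416 of the 3490 (11.9%), against 12.7% of all KD CTCF peaks on H3K4me3, 11.7% of constitutive peaks and 3.74% of CT-absent peaks outside H3K4me3. It can overlap a CTCF site, as it does in the site of CDH24 shown above. The E-box CACGTG was found in 3.12%, against 3.11%. The remaining words were rare: the ETS word CCGGAAGT in 0.487% (against 0.647%), the YY1 core AAGATGGCG in 0.487% (0.387%), the CRE TGACGTCA in 0.143% (0.222%) and the NRF1 core GCGCATGCG in 0.172% (0.260%). A run of 3 CGG units, CGGCGGCGG, was found in 9 peaks (0.258%, interval 0.118 to 0.489), against 0.387%, and in 1.05% (0.657 to 1.58) of peaks of KD alone on H3K4me3.

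A start within 1 kb of one of the peaks was found for 677 of 19975 protein-coding genes (3.39%), the value against which the gene lists are read. Of the lists of chromatin genes, such a peak was found at 0 of 24 genes of CTCF and cohesin machinery, 0 of 15 of cytosine methylation, 0 of 22 of H3K4 methylation and 1 of 22 of H3K9 methylation, counts too small to set apart from that value. In the last, ATF7IP, a partner of the H3K9 methyltransferase SETDB1, had a KD peak of 274 bp without a site, and H3K4me3 that overlapped it measured 290 bp in CT and 2556 bp in KD. Among 30 Polycomb genes PHF19, a PRC2 partner, had a CTCF peak of 253 bp with a site of 10.1 bits and H3K4me3 of 561 bp in CT and 607 bp in KD. None of 28 transcription factors of kidney development and none of 26 heat shock genes had one. At both ATF7IP and PHF19 a repeat-masked CT peak overlapped the CTCF peak.

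Among cell cycle regulators 2 of 32 genes had a CTCF peak of this kind. At CDK4, which drives entry into S phase, the site scored 17.5 bits and H3K4me3 measured 1237 bp in CT and 1332 bp in KD. At CDKN1B, which encodes the inhibitor p27, no site passed and H3K4me3 measured 786 and 738 bp. Of 22 replication licensing genes ORC2, a subunit of the origin recognition complex, had a site of 15.2 bits and H3K4me3 of 2299 bp in CT and 1177 bp in KD. Ribosomal protein genes had 6 of 80, among them RPL11, with H3K4me3 of 1878 bp in CT and 1838 bp in KD, and RPS3A, with 2197 and 2207 bp, and mitochondrial ribosomal protein genes 2 of 78. Zinc finger genes named ZNF had 8 of 515 (1.55%), replication-dependent histone genes 1 of 69 and HOX genes 1 of 39, which was HOXA10, with a site of 19.5 bits. A repeat-masked CT peak overlapped the CTCF peaks at CDK4, ORC2 and RPS3A, but not those at CDKN1B, RPL11 and HOXA10.

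The clustered protocadherin genes had the highest share of the lists, 14 of 53 genes (26.4%), and were looked at further after this count was seen. They encode cell adhesion proteins, and each variable exon has its own promoter, many of which are known to carry a CTCF site. Any KD CTCF peak on H3K4me3 was near a start in 29 of the 53 genes (54.7%), against 13.1% of all protein-coding genes, and a constitutive one in 8 of 53 (15.1%), against 5.75%. The genes are neighbours, so they are not independent of each other. Across the cluster, chr5:140785136-141509070, CTCF peaks numbered 20 (CT), 46 (KD) and 39 (OE), and H3K4me3 gave 45 peaks in CT and 49 in KD. The cluster held 18 of the CT-absent peaks on H3K4me3, 10 constitutive peaks and 3 of KD alone.

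Of these 18, 15 lay within 1 kb of a protocadherin start, 2 of them at PCDHA8, 6 at PCDHB genes and 7 at PCDHG genes. A CTCF site passed the limit in 8, which are shown with the site in capitals and 8 bases on either side, all on the plus strand, the strand of the genes.
PCDHA8, chr5:140841135-140841148: ttttgaagCCACATGATGTCGCtgtctacc
PCDHA8, chr5:140841778-140841791: ctcggtttCCGCTAGAGGGCGCgtccgatg
PCDHB2, chr5:141094549-141094562: cggaagagACGCGGGGTGGCGCtgcagcct
PCDHB3, chr5:141100398-141100411: gcaagcgaACGCATGGTGGCGCtgttgact
PCDHB4, chr5:141121728-141121741: caatcaagACGCAGGGTGGCGCtgcaggct
PCDHB6, chr5:141149996-141150009: tagtttgaACGCGTGGTGGCGGtacaagct
PCDHB7, chr5:141172571-141172584: tccacaaaACGCAAGGTGGCGCtgctggct
PCDHB14, chr5:141223268-141223281: acatggagACACATGGTGGCGCtacaggat
The 7 PCDHG peaks had no site at this limit, with best scores from -0.53 bits at PCDHGA6 to 6.94 bits at PCDHGB3. Of the 15, 14 were centred just upstream of the start, and the exception, the second PCDHA8 peak, lay 623 bp downstream in a coding exon and had the highest site score, 19.85 bits. At PCDHB7 the KD peak of 299 bp was centred 81 bp upstream of the start and the OE peak measured 254 bp. At PCDHB14 the KD peak of 283 bp was centred 76 bp upstream, with an OE peak of 352 bp. H3K4me3 at PCDHB7 measured 559 bp in CT and 569 bp in KD, and at PCDHB14 954 and 604 bp. In all, 12 of the 15 overlapped H3K4me3 of CT, the exceptions being PCDHB3, PCDHB4 and PCDHGA9, with H3K4me3 of 448, 187 and 187 bp in KD. At PCDHB4 this H3K4me3 peak of KD overlapped one of CT that began just beside the CTCF peak, and at PCDHB3 and PCDHGA9 it overlapped none. The nearest CT CTCF peak to the 15 lay between 4875 and 55057 bp away. A repeat-masked peak was found at 10 of the 15 in KD, at 10 in OE and at 2 in CT, none was at an input peak, and repeated bases made up 2.16% of their sequence.

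**Figure D5:**
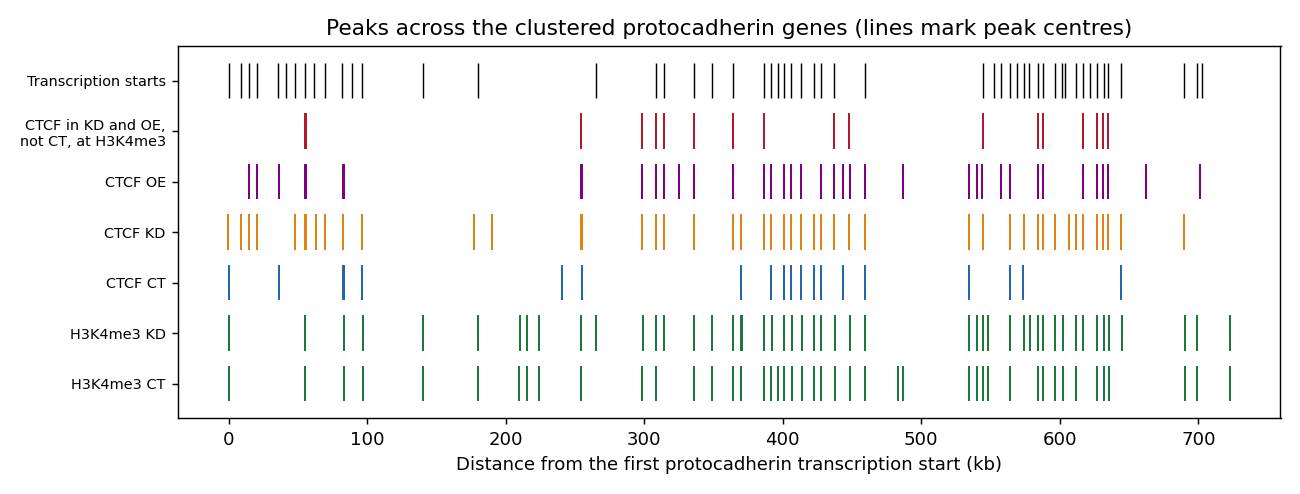
Peak centres across the clustered protocadherin genes, one row per list, by distance from the first transcription start (kb), with starts at the top. The CTCF rows hold 20 (CT), 46 (KD) and 39 (OE) peaks, against 18 CTCF peaks of KD and OE on H3K4me3 without a CT peak.

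A further group of the peaks lay where the input library, chromatin sequenced without antibody, also gave peaks. Of the 3490, 281 (8.05%, interval 7.17 to 9.004) overlapped an input peak, against 12% of all KD CTCF peaks on H3K4me3, 16.8% of constitutive peaks and 1.06% of CT-absent peaks outside H3K4me3. In these 281, repeated bases made up 89.9% of the sequence, against 10.2% in the other 3209. A CTCF motif was found in 28 (9.96%), against 84.6%, and H3K27me3 of CT overlapped 253 (90%), against 6.08%. H3K4me3 of CT was called at 263 of the 281 (93.6%), and 8 were within 1 kb of a start. On chromosome 7 input peaks overlapped 53 of 203 peaks, and the motif share there was 58.6% in all and 79.3% away from input. The peaks that were widest by the smaller of their KD and OE widths were of this group. The first, on the unplaced sequence KI270744v1, measured 1174 bp in KD and 1203 bp in OE, the next, near REXO1L2P on chromosome 8, 825 and 785 bp, and all of the 5 widest overlapped input peaks and had 81.25% repeated bases or more.

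Peaks of marks of silent chromatin were less frequent away from input peaks, with 6.08% in CT and 4.61% in KD for H3K27me3 and 3.55% and 4.11% for H3K9me3. Over all 3490, H3K27me3 peaks overlapped 12.8% in CT and 10.6% in KD, against 18.6% and 17.3% of all KD CTCF peaks on H3K4me3. H3K9me3 peaks overlapped 6.73% in CT and 8.08% in KD, against 16.4% and 17.3%. Each list was taken as the mark its title gives, although the antibodies for H3K9me3 and H3K27me3 are exchanged between the study's methods and the labels. Near transcription starts the shares were 1.65% and 1.18% for H3K27me3 and 0.946% and 0.709% for H3K9me3.

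Repeat-masked reads cannot give peaks inside masked repeats, so a lower content of repeated bases among peaks with repeat-masked support is in part built in. The 1945 with repeat-masked peaks in both KD and OE held a motif in 91.9% and consisted of 3.55% repeated bases. The 1167 with no repeat-masked peak in any condition held a motif in 56.1%, a difference of 35.7 points (32.6 to 38.8), with 43.8% repeated bases and 20.7% at input peaks, against 1.39%. Of these 1167, 631 held a motif and were away from input peaks. H3K4me3 of CT was found at 80.9% and 82.2% of the 2 groups, a difference of -1.25 points (-4.01 to 1.60).

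The peaks were spread over all chromosomes. Their share of the KD CTCF peaks on H3K4me3 was lowest on chromosome 9 (121 of 778, 15.6%) and highest on chromosome 8 (173 of 566, 30.6%) among chromosomes 1 to 22 and X, and 89 lay on sequences outside the chromosomes. Chromosomes 2 and 17 had a motif in 89.0% and 91.3% of their peaks, and chromosome 21 in 55.6% of 54.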

How the data were processed

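HEK293T chromatin was measured by ChIP-seq, with 1 library per target and condition. As the methods and labels state, the authors used Bowtie2 to map reads to hg38 with and without repeat masking, called peaks with MACS2 and made lists of exclusive peaks with bedtools (versions not given in the sources used here). The 19 deposited files hold peak positions in bp, with no signal or score, and the depth behind a peak is unknown. Starts were read as counted from 0 and are printed counted from 1, and since the narrowest CTCF peaks then measure 199 bp where the methods state 200 bp, positions may be 1 bp off. The labels give p thresholds of 0.0025 (CTCF in CT and KD), 0.005 (CTCF in OE) and 0.001 (histone marks, input and repeat-masked lists), and the methods give 0.005 for unmasked reads. Groups followed the labels.

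The members and the gene lists were chosen with earlier results of these data known. Overlap meant at least 1 bp. The reference was hg38 with GENCODE release 44, whose sequence names and lengths fit the files. A 14-column CTCF matrix was learned from 10875 peaks in 6 rounds, and sites were called at 8.26 bits (p below 0.0001). Repeated bases lay in 24-mers with at least 10 copies. The genes and peaks named are the 12 with the highest site score at protein-coding starts (chromosome 8 left out), the widest H3K4me3 and CTCF peaks, H3K4me3 peaks with most members (the first 3 of 14 equal ones), peaks at the limit of the rule and genes of the lists. Other list genes, the protocadherins and the chromosomes named were chosen after their values were seen. Shares have 95% Clopper-Pearson intervals, and differences between disjoint lists 95% Newcombe intervals. No test between conditions was possible with 1 library each. Python 3.11.15, numpy 2.4.6, pandas 2.3.3, scipy 1.17.1, pysam 0.24.0, matplotlib 3.10.9 and samtools 1.23.1 were used, and overlaps, site search and intervals were tested on simulated data. Alternatives changed the overlap, width, input, chromosome, motif and distance rules.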

Additional observations from a re-analysis of the deposited data

How the results depend on the processing

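Of 95 alternative values for 9 results, 43 counted as unchanged, 47 moved in the same direction or with no direction called, and 5 turned the sign of a difference. The cause of the changes was not tested. Unchanged meant within the counting interval or spread of the reported value, except for the number of peaks, which had no such interval. Its values from 2541 to 3401 counted as unchanged, with 2541 when the CTCF centre lay in H3K4me3 of KD and 2664 without repeat-masked CT peaks. No paired analysis was possible because each condition had 1 library and no test was made.

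The number of peaks, 3490, was 965 with the widest 20000 KD and OE peaks, 622 with H3K4me3 of at least 1000 bp and 1945 with repeat-masked KD and OE peaks, a rule added after the data were seen. The share with H3K4me3 of CT was 86.2% when the CTCF centre had to lie in H3K4me3 of KD, 84.4% with the widest peaks, 97.9% with H3K4me3 of at least 1000 bp and 63.3% when the centre had to lie in H3K4me3 of CT. The share with a motif was 73.9%, 83.8% and 83.3% under the first 3 of these rules, 84.6% without input peaks, 74.2% without repeat-masked CT peaks, 91.9% with repeat-masked KD and OE peaks, 59.1% at p below 0.00001, 45.6% by a consensus with at most 1 mismatch and 74.6% in 200 bp around the centre.

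The motif difference from constitutive peaks turned negative with H3K4me3 of at least 1000 bp (-7.18 points), without input peaks (-3.50), with repeat-masked KD and OE peaks (-3.56), at p below 0.00001 (-3.86) and by the consensus (-3.90). It was 0.87 with the widest peaks and 26.6 without repeat-masked CT peaks, a value that is in part built in because such peaks gave the matrix. Constitutive peaks, but none of the 3490, could be among them, and the effect on the other values from the matrix was not tested. The difference from CT-absent peaks outside H3K4me3 was -10.9 points by the centre in H3K4me3 of KD, -3.56 with the widest peaks, -0.62 with H3K4me3 of at least 1000 bp, -0.12 without input peaks, -7.48 without repeat-masked CT peaks, -2.78 with repeat-masked KD and OE peaks and -7.04 at p below 0.00001.

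The share near starts was 26.8% by the centre, 20.8% with the widest peaks, 63.7% with H3K4me3 of at least 1000 bp, 26.1% without input peaks, 26.7% with repeat-masked KD and OE peaks, 17.3% within 500 bp, 30.9% within 2 kb and 17.7% for protein-coding starts. The share with a repeat-masked CT peak was 30.2% with the widest peaks, 22.2% with H3K4me3 of at least 1000 bp, 25.2% without input peaks and 39.6% with repeat-masked KD and OE peaks. Repeated bases were 19.5% by the centre, 4.98% with H3K4me3 of at least 1000 bp, 10.2% without input peaks, 20.9% without repeat-masked CT peaks, 3.55% with repeat-masked KD and OE peaks and 11.99% for 24-mers with at least 100 copies. The median log2 width ratio of H3K4me3 was 0.015 by the centre, -0.0057 with the widest peaks, 0.012 with H3K4me3 of at least 1000 bp and 0.048 over bases within 2 kb.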
